A study of Bos grunniens x Bos taurus and Bos grunniens with 6 samples.

Results

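The tetraspanin genes were compared between the testis of cattle-yak and that of yak. They were chosen by symbol, as every gene named TSPAN with a number, together with CD9, CD37, CD53, CD63, CD81, CD82, CD151, the uroplakins UPK1A and UPK1B and the photoreceptor gene PRPH2. Of the 18918 genes of the deposited table, 31 met this rule, on 30 symbols, since CD63 stood on 2 genes. TSPAN4, TSPAN32 and ROM1 were not analysed here. The cattle-yak (libraries TES5, TES6 and TES7) were sterile F1 males of a Jersey sire and a Gannan yak dam, and the yak (Yak8, Yak9 and Yak10) were Gannan males. Each library came from testis tissue of 1 untreated animal, 4 years old. The animals were kept in Xiahe County (cattle-yak) or Linxia County (yak), so place cannot be told apart from the cross. The labels give castration as the source of the testes in both groups, while the methods of the study state that the yak were euthanized, a difference that would also coincide with the cross.

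Tetraspanins are small membrane proteins with a quartet of membrane-spanning stretches. They bind each other and integrins, immunoglobulin-type proteins or proteases sideways in the membrane, and so place these partners in microdomains and in extracellular vesicles. In reproduction they are best known from CD9 on the egg, which is needed for fusion with sperm, and from CD9 and TSPAN8 as surface markers used to sort spermatogonial stem cells in rodents.

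The values are FPKM, that is fragments per kilobase of gene model scaled to the depth of a library. This depth lay near the number of fragments on genes (11834987 against 11790640 in TES5). The values rested on 11132456 to 11790640 fragments on genes in cattle-yak and 12935102 to 13079755 in yak. Genes with a mean of at least 0.5 FPKM over the 6 libraries, 15042 in all and 27 of the 31 tetraspanins, were tested with limma on log2 (FPKM + 1). A gene was called higher or lower where the adjusted p was under 0.05 and the log2 fold change passed 1 in size. Of all tested genes 33.4% were called higher in cattle-yak and 20.9% lower. The testis label was checked against marker lists. The called markers were higher in cattle-yak for Sertoli (12 of 12 tested), Leydig (6 of 6) and myoid cells (5 of 5), and lower for round spermatids (2 of 2) and elongating spermatids (5 of 5), whose summed level was 13.4 to 68.8 FPKM against 8133 to 9917 in yak. In such tissue, fewer cells of a type and less RNA per cell cannot be told apart. Over all tested genes the log2 fold change had a median of 0.51, so a member at that value stood with the bulk of genes. With libraries scaled by median-of-ratios size factors this median was 0.01, and when they were centred on the Sertoli markers it was −1.74.

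The tetraspanin transcripts of the cattle-yak testis came mostly from a quartet of widely expressed genes, CD63, CD9, CD81 and CD151, while in the yak testis these genes held a smaller share and TSPAN6 was the most abundant member. The members summed to 931.1 ± 24.3 FPKM in cattle-yak, where yak had 584.0 ± 32.0 (mean ± SD, n = 3). These sums were 0.157% ± 0.0028 and 0.0971% ± 0.0039 of all FPKM of a library. CD63, CD9, CD81 and CD151, the most abundant members in cattle-yak, held 68.1% ± 0.74 of the family's FPKM in cattle-yak and 23.8% ± 3.04 in yak (mean ± SD, n = 3), shares that do not depend on how libraries are scaled. These genes were picked by their level in cattle-yak, so the shares are a description. TSPAN16 and TSPAN8, near 0 in cattle-yak, stood in ranks 3 and 8 in yak.

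**Figure D1:**
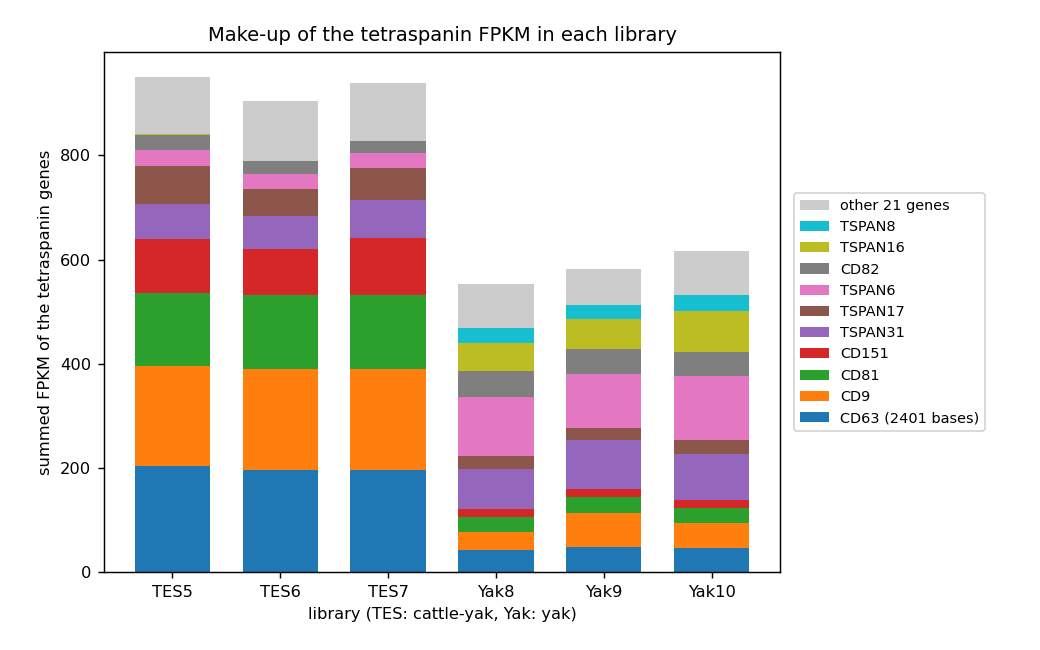
Bars show the summed FPKM of the 31 tetraspanin genes in each library, split by gene, with the 10 genes named in the legend apart and 21 others in light grey at the top. In the TES libraries (cattle-yak) CD63, CD9, CD81 and CD151 made up 67.3% to 68.7% of the bar, and in the yak libraries 21.7% to 27.3%.

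Of the 27 tested members 15 were called (55.6%), where 54.2% of all tested genes were. The 9 called higher in cattle-yak were 33.3% of the members, beside 33.4% of all genes, and the 6 called lower 22.2%, beside 20.9%. The shares called thus lay near those of the whole table. The values of the groups did not overlap in 24 of 27 members, as in 84.1% of all tested genes. Cattle-yak lay above yak in 16 of these (53.9% of all genes) and below in 8 (30.2% of all genes). The median log2 fold change of the members was 0.69. Without the fold threshold 16 members were called higher (52.6% of all genes) and 8 lower (29.2% of all genes), 81.9% of all genes being called in either direction. With a pseudocount of 0.1 in place of 1, 13 were called higher (39.4% of all genes) and 6 lower (22.7%; 62.1% in either direction). With voom on the fragments the members again numbered 13 and 6, beside 39.7% and 22.7% of all genes (62.4% in either direction). With median-of-ratios scaling 5 members were called higher (17.6% of all genes) and 7 lower (27.7% of all genes, 45.4% in either direction). Centred on the Sertoli markers, none was called higher (0.186% of all genes) and 19 were called lower (74.2% of all genes, 74.4% in either direction), so each member described here as higher was so in FPKM as deposited. In that centring CD81 and CD151 kept a positive value, of 0.01 and 0.42, and the remaining members above 0 turned negative.

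**Figure D2:**
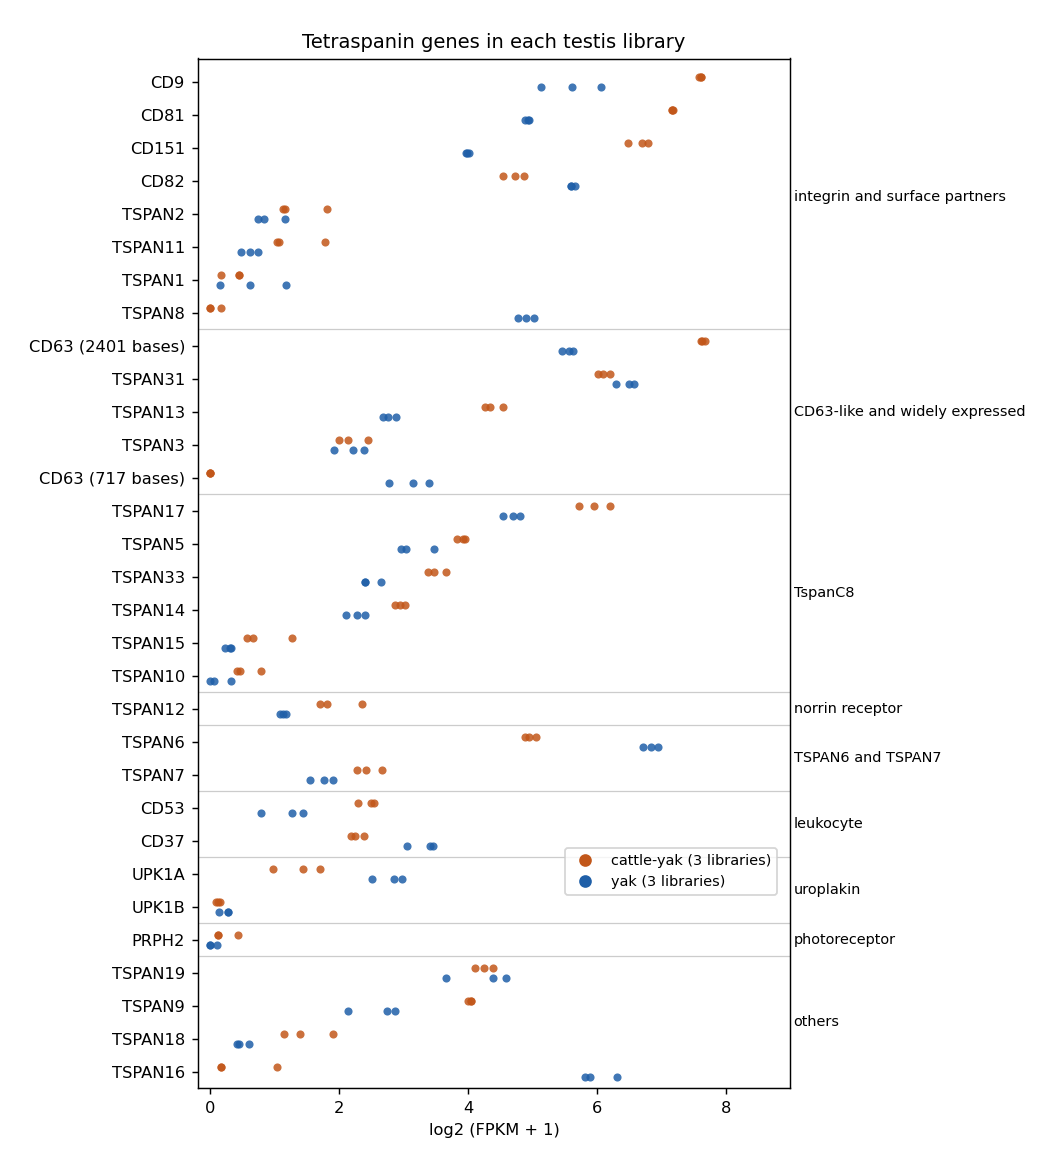
Points show log2 (FPKM + 1) of each of the 31 genes in the 3 cattle-yak (orange) and 3 yak (blue) libraries, grouped by role. CD151, CD81 and the longer CD63 gene lie apart to the right in cattle-yak, and TSPAN8 and TSPAN16 lie near 0 in cattle-yak and at 26.3 to 78.0 FPKM in yak.

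Among the partners of integrins and other surface proteins, 3 of 7 tested members were called higher (33.4% of all genes), CD151, CD81 and CD9. TSPAN8 was called lower (20.9% of all genes). CD151, which binds the laminin receptors among the integrins, had 103.0 FPKM in TES5, 87.9 in TES6 and 109.3 in TES7, and 14.8, 15.1 and 14.6 in Yak8, Yak9 and Yak10. The lowest cattle-yak value lay far above the highest yak value. With a log2 fold change of 2.67 (standard error 0.11, adjusted p = 3.3e-07) it had the largest rise of the family, and it was still called higher with median-of-ratios scaling (2.07).

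CD81, a companion of CD9 on many cells, had 142.1, 143.4 and 142.8 FPKM in TES5 to TES7 and 28.6, 29.7 and 29.3 in Yak8 to Yak10. Among tested members it had the smallest SD relative to the mean within cattle-yak, 0.466%. With 2499 to 2622 fragments per library this lies below counting error, so it does not rank the gene's spread between animals. CD81 differed by 2.25 on the log2 scale (standard error 0.08, adjusted p = 2.0e-07). CD9 had 191.2, 193.7 and 193.8 FPKM in cattle-yak, but 33.8 in Yak8, 65.7 in Yak9 and 47.9 in Yak10. Its cattle-yak values were close together, with an SD of 0.770% of the mean, also below counting error. Its yak values spread over nearly a doubling, with an SD of 32.5%. The log2 fold change of CD9 was 2.001 (standard error 0.21, adjusted p = 3.4e-05). Centred on the Sertoli markers it was −0.25.

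Ratios inside a library are free of any scaling between libraries. The ratio of CD9 to CD81 was 1.35 to 1.36 in cattle-yak, within the yak range of 1.18 to 2.21. That of CD151 to CD81 was 0.613 to 0.766 in the cattle-yak libraries and 0.498 to 0.517 in the yak ones, so CD151 differed more than CD81 between the groups. The ratio of CD63 to CD81 was 1.36 to 1.43 against 1.504 to 1.635, the opposite order. With 3 animals against 3, an exact permutation test cannot go below p = 0.1, and these ratios were not tested further.

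CD82, an integrin partner first described as a suppressor of metastasis, ran the other way. It had 28.2, 25.6 and 22.4 FPKM in TES5 to TES7 and 49.7, 47.4 and 47.4 in Yak8 to Yak10. The groups were apart, but the log2 fold change of −0.90 (standard error 0.11, adjusted p = 8.8e-05) missed the threshold of 1. It passed with median-of-ratios scaling, at −1.504.

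Low members of this set were TSPAN2, with 1.64 ± 0.76 FPKM in cattle-yak against 0.890 ± 0.29 in yak (mean ± SD, n = 3), and TSPAN11, with 1.52 ± 0.79 against 0.524 ± 0.14. TSPAN2, which is close to CD9 and CD81 in sequence, overlapped between the groups (log2 fold change 0.46, adjusted p = 0.095). For TSPAN11, a relative of CD151, the value was 0.69 (adjusted p = 0.022), under the fold threshold. It passed with a pseudocount of 0.1 (1.296) and with voom (1.42), and was at 0.44 without TES6.

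TSPAN8 was at the edge of detection in cattle-yak. It had 0.118 FPKM in TES5, from 1 fragment, and no fragment in TES6 and TES7, against 28.9, 26.3 and 31.4 FPKM in Yak8, Yak9 and Yak10, from 271, 246 and 291 fragments. Over the groups this was 1 fragment against 808, a ratio of yak to cattle-yak of 712.8 per depth, with an exact 95% interval of 127.6 to 28190 that covers counting error only. The log2 fold change on FPKM + 1 was −4.84 (standard error 0.14, adjusted p = 9.8e-08). The pseudocount keeps this value far smaller than the ratio of fragments.

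In yak TSPAN8 stood level with CD81, at 28.9 ± 2.54 FPKM against 29.2 ± 0.56 (mean ± SD, n = 3). The marker list for spermatogonia, the cells that TSPAN8 is used to sort, had 6 of 7 genes called higher in cattle-yak (33.4% of all genes). Its summed levels were 727.9 to 930.5 FPKM against 176.1 to 243.4. TSPAN8 thus differed in the direction of the spermatid markers and not of that list. The part of either cell type in its level was not tested.

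**Figure D3:**
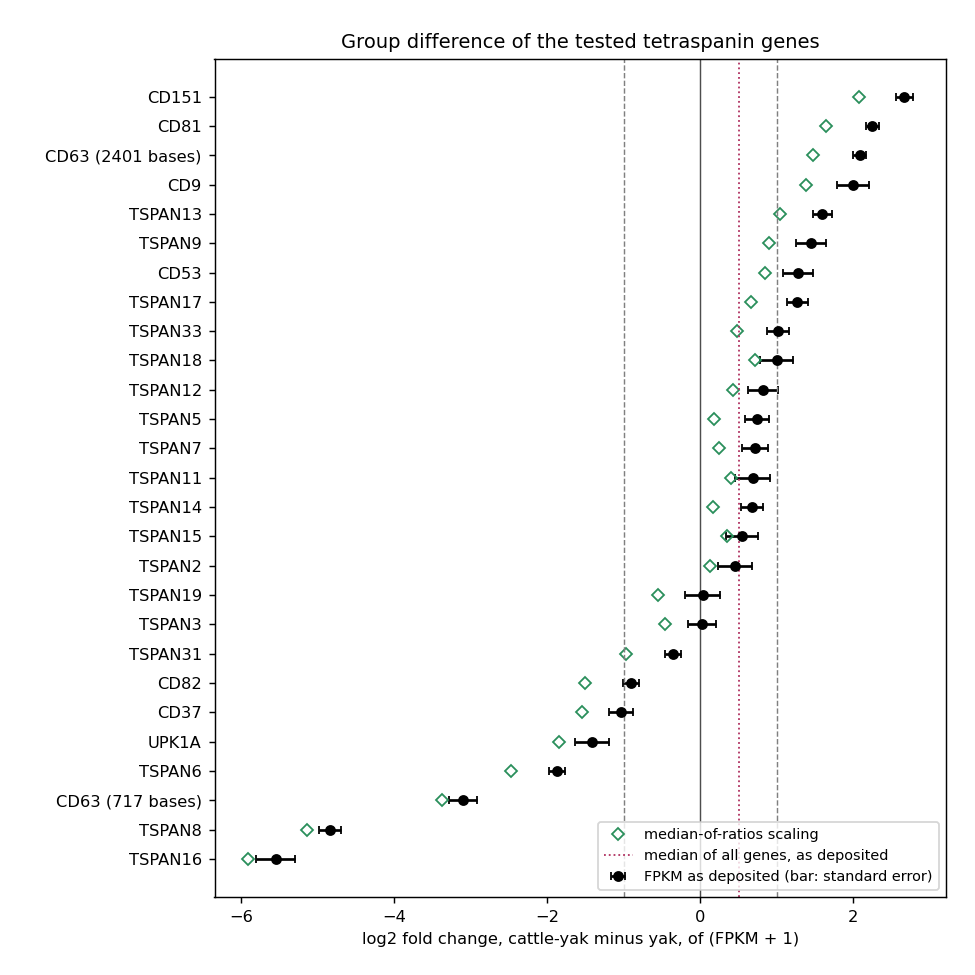
Filled points show the log2 fold change of log2 (FPKM + 1), cattle-yak minus yak, of the 27 tested members with its standard error, and open diamonds the value after median-of-ratios scaling. Dashed lines mark 1 and −1, and the dotted line is the median of all genes, 0.51. The values run from 2.67 for CD151 to −5.55 for TSPAN16, and median-of-ratios scaling moves the points to the left, with TSPAN3 and TSPAN19 passing below 0.

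CD63, the tetraspanin of late endosomes, lysosomes and exosomes, was represented by 2 genes that behaved in opposite ways. The gene with the longer model, ENSBGRG00000009987 of 2401 bases, had 203.5, 195.6 and 195.9 FPKM in TES5 to TES7 and 43.0, 48.5 and 46.4 in Yak8 to Yak10. It was the most abundant tetraspanin in each cattle-yak library, closely followed by CD9. Its log2 fold change was 2.09 (standard error 0.09, adjusted p = 3.7e-07), and −0.16 when centred on the Sertoli markers.

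The gene with the shorter model, ENSBGRG00000009908 of 717 bases, had no fragment in any cattle-yak library. In Yak8, Yak9 and Yak10 it had 5.84, 7.88 and 9.45 FPKM, from 55, 74 and 88 fragments. Setting the cattle-yak group at a floor of 3 fragments, or 0.121 FPKM, it was at least 63.8-fold lower in cattle-yak. The exact 95% interval of the ratio of fragments per depth, yak to cattle-yak, began at 51.45. Whole fragments can be placed on the wrong gene where genes share sequence, so the assignment between these 2 genes, which was not tested, is uncertain.

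TSPAN13, TSPAN31 and TSPAN3 are expressed in many tissues. TSPAN13 had 22.2, 19.2 and 18.1 FPKM in TES5 to TES7 and 5.77, 6.38 and 5.43 in Yak8 to Yak10, with no overlap. Its log2 fold change was 1.60 (standard error 0.13, adjusted p = 8.5e-06), and it was called with median-of-ratios scaling too, at 1.04. TSPAN31, which lies tail to tail with CDK4 in the human genome, so that unstranded counting could mix the pair, had 67.2, 63.3 and 72.7 FPKM in TES5 to TES7 and 77.7, 94.4 and 88.7 in Yak8 to Yak10. The groups did not overlap, but they differed by −0.35 (standard error 0.11, adjusted p = 0.014), under the fold threshold.

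Inside the libraries the contrast with CD63 was plain. The ratio of TSPAN31 to the longer CD63 gene was 0.324 to 0.371 in the cattle-yak libraries and 1.81 to 1.95 in the yak ones. TSPAN3 showed no group difference that the test could detect, with 3.60 ± 0.76 FPKM in cattle-yak against 3.53 ± 0.71 in yak (mean ± SD, n = 3), a log2 fold change of 0.02 (adjusted p = 0.918) that was −0.46 with median-of-ratios scaling.

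The TspanC8 tetraspanins TSPAN5, TSPAN10, TSPAN14, TSPAN15, TSPAN17 and TSPAN33 bind the membrane protease ADAM10 and carry it to the cell surface, where it cleaves Notch, cadherins and other proteins. All 6 had higher mean FPKM in cattle-yak, and 2 of the 5 tested were called, TSPAN17 and TSPAN33, where 33.4% of all genes were called higher and the median of all genes was 0.51. TSPAN17 was the main member, with 72.2, 51.6 and 60.9 FPKM in TES5 to TES7 and 24.9, 22.4 and 26.9 in Yak8 to Yak10. It made up 59.9% to 69.4% of the summed TspanC8 FPKM in cattle-yak and 58.4% to 61.6% in yak. Its log2 fold change was 1.27 (standard error 0.14, adjusted p = 4.8e-05), 0.67 with median-of-ratios scaling and −0.97 (Sertoli-centred).

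TSPAN33, known from B cells and red cell precursors, had 10.04, 11.6 and 9.36 FPKM in TES5 to TES7 and 5.25, 4.26 and 4.29 in Yak8 to Yak10. Its value of 1.02 (adjusted p = 2.2e-04) was just inside the threshold and came under it with median-of-ratios scaling (0.48) and without TES6 (0.94), Yak9 (0.97) or Yak10 (0.98). TSPAN5 had 14.2, 14.5 and 13.1 FPKM in TES5 to TES7 and 6.80, 7.16 and 10.06 in Yak8 to Yak10, a log2 fold change of 0.75 (adjusted p = 2.4e-03). TSPAN14 had 6.69 ± 0.40 against 3.82 ± 0.49, with 0.68 (adjusted p = 2.1e-03). For both genes the cattle-yak values were all above the yak values, and the fold was under the threshold. With median-of-ratios scaling the log2 fold change was 0.18 for TSPAN5 and 0.16 for TSPAN14. TSPAN15 was low, at 0.821 ± 0.51 FPKM against 0.220 ± 0.041 (log2 fold change 0.54, adjusted p = 0.041). It was called higher with a pseudocount of 0.1 (1.40) and with voom (1.70), and was at 0.33 without TES6.

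ADAM10 itself had 46.7, 44.7 and 42.9 FPKM in TES5 to TES7 and 13.1, 11.3 and 13.6 in Yak8 to Yak10, and was called higher with a log2 fold change of 1.75 (adjusted p = 2.1e-06). The TspanC8 genes summed to 93.8 ± 9.23 FPKM in cattle-yak against 41.5 ± 4.13 in yak (mean ± SD, n = 3). Per FPKM of ADAM10 there were 1.92 to 2.23 FPKM of TspanC8 genes in cattle-yak and 3.10 to 3.39 in yak. ADAM10 thus differed more between the groups than the sum of the TspanC8 genes, which TSPAN17 led, and this ratio is free of scaling.

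TSPAN12, which acts with the Frizzled-4 receptor in norrin signalling in blood vessels, had 2.25, 4.08 and 2.52 FPKM in TES5 to TES7 and 1.24, 1.12 and 1.19 in Yak8 to Yak10. The groups were apart, at a log2 fold change of 0.83 (standard error 0.20, adjusted p = 4.2e-03), under the fold threshold. It passed, at 1.24, in limma voom on recovered fragments, which needs no pseudocount of 1 and called 39.7% of all genes higher. It also passed with a pseudocount of 0.1 (1.20). TSPAN12 was at 0.43 with median-of-ratios scaling and at 0.63 without TES6. Its receptor FZD4 (6.61 ± 0.39 FPKM against 1.53 ± 0.14, SD, n = 3) and the ligand NDP (2.94 ± 2.0 against 0.436 ± 0.21) were both called higher, with 1.59 and 1.35.

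TSPAN6 and TSPAN7 lie on the X chromosome in human and mouse and are close relatives. TSPAN6, annotated in the table as a restraint on antiviral RNA sensing, was the most abundant tetraspanin in yak, with 112.7, 104.3 and 121.7 FPKM in Yak8 to Yak10 against 32.0, 28.5 and 29.6 in TES5 to TES7. Every yak value was over 3 times every cattle-yak value, and the log2 fold change was −1.87 (standard error 0.10, adjusted p = 9.9e-07). TSPAN7 had 4.35, 3.82 and 5.36 FPKM in TES5 to TES7 and 1.92, 2.74 and 2.39 in Yak8 to Yak10, with 0.71 (standard error 0.17, adjusted p = 4.4e-03), under the fold threshold. The ratio of TSPAN7 to TSPAN6 inside a library was 0.134 to 0.181 in the cattle-yak libraries and 0.0171 to 0.0263 in the yak ones.

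The leukocyte tetraspanins CD53 and CD37 moved in opposite directions. CD53, found on nearly every white blood cell, had 3.89, 4.79 and 4.61 FPKM in TES5 to TES7 and 1.39, 1.71 and 0.730 in Yak8 to Yak10, a log2 fold change of 1.28 (standard error 0.20, adjusted p = 3.8e-04). With median-of-ratios scaling it was 0.85, under the fold threshold. CD37, most abundant on B cells, had 3.73, 4.23 and 3.54 FPKM in TES5 to TES7 and 9.93, 7.30 and 9.55 in Yak8 to Yak10. Its value of −1.03 (standard error 0.16, adjusted p = 3.3e-04) was just past the threshold, and it came under it without TES7 (−0.99), Yak8 (−0.96) or Yak10 (−0.98). The ratio of CD53 to CD37 inside a library was 1.04 to 1.30 in the cattle-yak libraries and 0.0764 to 0.234 in the yak ones.

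The leukocyte marker lists also held genes called in both directions. Of 7 macrophage markers 4 were called higher (33.4% of all genes) and 2 lower (20.9% of all genes). Their summed levels were 120.1 to 168.2 FPKM in cattle-yak and 108.5 to 141.4 in yak. With median-of-ratios scaling 2 of the 4 kept their call. Of 5 tested lymphocyte markers, the T cell genes CD3E and CD2 were called higher (0.65 and 0.75 with median-of-ratios scaling, under the fold threshold), and the B cell gene CD79A was called lower. The lymphocyte list summed to 12.8 to 25.0 FPKM in cattle-yak and 17.5 to 26.2 in yak, and CD79B was at 0 in the cattle-yak libraries and at most 0.0708 FPKM in a yak library. The part of leukocytes in the levels of CD53 and CD37 was not tested.

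UPK1A, a uroplakin of the bladder lining, had 1.69, 0.954 and 2.24 FPKM in TES5 to TES7 and 6.88, 6.18 and 4.66 in Yak8 to Yak10. It was called lower, with a log2 fold change of −1.41 (standard error 0.22, adjusted p = 4.4e-04). Its partner in the bladder, UPK2, had 0.0756 ± 0.13 FPKM in cattle-yak against 0.518 ± 0.13 in yak (mean ± SD, n = 3), too low for the test. UPK1B had 12 fragments over the cattle-yak and 27 over the yak libraries, and UPK3A, its partner, at most 0.169 FPKM in the mean of either group. UPK3B, which is also made by mesothelium, was called higher, with 18.8 ± 4.30 FPKM against 1.16 ± 0.31 (mean ± SD, n = 3) and a log2 fold change of 3.19 (adjusted p = 2.0e-06).

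TSPAN16 had the largest fall of the family on log2 (FPKM + 1). TSPAN8 fell further by the ratio of fragments, with a pseudocount of 0.1 (−7.80 against −7.38) and with voom (−8.36 against −7.58). TSPAN16 had 1.03 FPKM in TES5, 0.122 in TES6 and 0.117 in TES7, from 9, 1 and 1 fragments, and 55.2, 58.5 and 78.0 FPKM in Yak8, Yak9 and Yak10, from 533, 563 and 745 fragments. In yak it was the third most abundant tetraspanin, and in cattle-yak it stood in rank 26 of 31. The ratio of fragments per depth was 147.6 (exact 95% interval 82.3 to 296.3), and the log2 fold change −5.55 (standard error 0.26, adjusted p = 5.3e-07). The library with the highest TSPAN16 of the cattle-yak, TES5, also had the highest elongating spermatid markers of the group (68.8 FPKM against 26.1 in TES6 and 13.4 in TES7) and the highest round spermatid markers (24.4 against 11.6 and 4.31). The part of spermatids in its level was not tested.

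**Figure D4:**
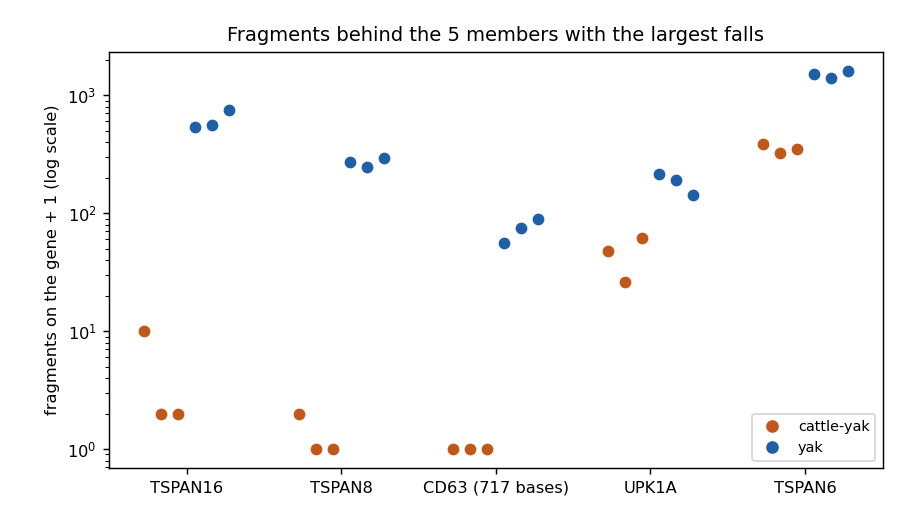
Points show the fragments on a gene plus 1, on a log axis, for the 5 members with the largest falls in each of the 3 cattle-yak (orange) and 3 yak (blue) libraries. TSPAN16, TSPAN8 and the shorter CD63 gene had 0 to 9 fragments in a cattle-yak library and 55 to 745 in a yak library, while TSPAN6 kept 323 to 385 in cattle-yak.

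TSPAN9 and TSPAN18 are known best from platelets and endothelium, and TSPAN19 is little studied. TSPAN9 had 15.5, 15.0 and 15.4 FPKM in TES5 to TES7 and 5.71, 3.39 and 6.31 in Yak8 to Yak10, and was called higher with a log2 fold change of 1.45 (standard error 0.20, adjusted p = 1.7e-04), which was 0.90 with median-of-ratios scaling. TSPAN18 had 1.63, 2.74 and 1.198 FPKM against 0.326, 0.354 and 0.507. At 0.9992 (standard error 0.22, adjusted p = 2.6e-03) it lay just under the threshold. It passed without TES5 (1.04), TES7 (1.17) or Yak10 (1.06), with TPM scaling (1.28), with a pseudocount of 0.1 (1.92) and with voom (2.15). It stayed under the threshold with median-of-ratios scaling (0.71) and without TES6 (0.79), Yak8 (0.96) or Yak9 (0.98). The endothelial markers beside these genes were called higher for 4 of 7 (33.4% of all genes) and lower for 1 (20.9% of all genes). Their summed levels were 45.1 to 64.4 FPKM in cattle-yak and 32.9 to 39.5 in yak. None of the 4 kept its call with median-of-ratios scaling. The part of endothelium in the level of TSPAN9 and TSPAN18 was not tested.

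TSPAN19 was at a like level in both groups, with 18.0 ± 1.84 FPKM in cattle-yak against 18.2 ± 5.94 in yak (mean ± SD, n = 3). Its log2 fold change of 0.04 (standard error 0.23, adjusted p = 0.893) was −0.55 with median-of-ratios scaling. The yak animals differed among themselves, with 23.1 FPKM in Yak8, 11.6 in Yak9 and 19.8 in Yak10.

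TSPAN1, TSPAN10, UPK1B and PRPH2 had a mean under 0.5 FPKM and were not tested. TSPAN10, a pigment cell gene, had 31 fragments over the cattle-yak and 7 over the yak libraries, and PRPH2, which shapes the discs of photoreceptors, had 6 and 1. TSPAN1, an epithelial gene, had 7 and 18, of which 12 were in Yak8. None of the 4 passed 1.25 FPKM in any library. The ratio of fragments per depth, yak to cattle-yak, was 0.199 for TSPAN10, with an exact 95% interval of 0.0740 to 0.461 that covers counting error and not the spread between animals. For TSPAN1, UPK1B and PRPH2 this interval included 1.

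The order of the levels differed between the groups. In cattle-yak it began with CD63, CD9, CD81, CD151, TSPAN31 and TSPAN17. The ranges of neighbours were apart over the first 4 of these, while TSPAN31 and TSPAN17 overlapped. In yak it began with TSPAN6, TSPAN31, TSPAN16, CD9, CD82 and CD63. There TSPAN6 was apart from TSPAN31, and from TSPAN31 down to CD63 each neighbour overlapped with the next. CD151 was in rank 4 in cattle-yak and 11 in yak, and TSPAN8 in rank 30 and 8. At least 10 FPKM were reached by 12 to 13 members in a cattle-yak library and by 11 to 12 in a yak library.

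Of 38 listed partner genes of tetraspanins, 32 could be tested. They were called higher in 18 cases (33.4% of all genes) and lower in 3 (20.9% of all genes), with a median log2 fold change of 1.33 where all genes had 0.51. With median-of-ratios scaling 10 of the 18 kept their call and 8 did not, among them IGSF8 (0.79), ITGA6 (0.97) and PDCD6IP (0.70). Centred on the Sertoli markers, the partners named below as higher were negative, as was ADAM10 at −0.50, while UPK3B was at 0.94. IGSF8 and PTGFRN, the immunoglobulin proteins that bind CD9 and CD81 most directly, had 38.8 ± 5.37 and 3.93 ± 0.66 FPKM in cattle-yak and 14.2 ± 1.57 and 0.791 ± 0.22 in yak (mean ± SD, n = 3), with 1.39 (adjusted p = 2.7e-05) and 1.46 (adjusted p = 7.6e-05). ITGA6, which pairs with CD151 in cell attachment to laminin, had 1.52 (adjusted p = 1.1e-05), while ITGA3, also a laminin receptor, had 0.95 and ITGA4 was called lower at −1.07.

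PDCD6IP, known as ALIX, and SDCBP, known as syntenin, load CD63 into exosomes. PDCD6IP was called higher, with 102.8 ± 0.73 FPKM against 40.95 ± 2.52 (log2 fold change 1.31, adjusted p = 3.3e-06). SDCBP had 226.8 ± 14.0 against 172.4 ± 9.22 and a value of 0.39, under the fold threshold and −0.22 with median-of-ratios scaling. CNGB1, the channel subunit that PRPH2 binds in photoreceptors and that sperm also carry in a shorter form, was called lower, with 0.0296 ± 0.011 FPKM against 4.91 ± 1.75 (mean ± SD, n = 3) and −2.48 (adjusted p = 1.4e-05).

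The members also shared features that the rule on symbols did not use. Of the 31 genes 30 carried a GO term in the table, and 29 were annotated both as integral to the plasma membrane and to cell surface receptor signalling, terms held by 843 and 132 genes of the table. Integrin binding was given for 3 members, CD9, CD81 and CD151, and tetraspanin-enriched microdomain for 2. The gene models, whose lengths followed from the FPKM steps, ran from 687 to 5613 bases with a median of 1363, and 11 were under 1000 bases, 9 of these a multiple of 3. TSPAN16, TSPAN8 and the shorter CD63 gene, the members with the largest falls, were among these 9, as were CD9 and TSPAN9, which were called higher.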

How the data were processed

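RNA-seq was done on testis of 3 cattle-yak and 3 yak (TruSeq stranded mRNA kit, paired-end reads). Per the study's methods, reads were trimmed with Trimmomatic and mapped with HISAT2 to the yak genome LU_Bosgru_v3.0 for both groups, which could favour yak alleles. The authors deposited FPKM. Their methods name Cufflinks for FPKM and HTSeq-count for read counts, and no further scaling. The versions and the strand setting of the counting are not given in the sources used here.

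FPKM values were whole fragments divided by length and depth, within 0.03 fragments for all 17973 genes with 2 or more values above 0, and these fragments were recovered with numpy 2.4.6. Genes were compared with limma 3.58.1 in R 4.3.3 (two-sided, variance trend, Benjamini-Hochberg adjustment over 15042 genes), on log2 (FPKM + 1), which understates the change of low genes. The recovery and the test were checked on simulated data. P-values weigh the group difference against the spread between animals within groups, with the variance of each gene drawn towards that of genes at a like level.

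Each member was given with its values. Libraries were written out for called members, abundant members and those near the threshold, and partner and marker genes came from fixed lists, of which the most abundant gene of a symbol was used. The members and lists were chosen with earlier results of these data known. Alternatives were a pseudocount of 0.1, other minimums (none, or 5 FPKM), scaling by median-of-ratios, to TPM or on 12 Sertoli markers, no variance trend, no fold threshold, voom on recovered fragments, and the omission of each library. One listed partner and marker gene is not reported here by name.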

Additional observations from a re-analysis of the deposited data

How the results depend on the processing

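No paired analysis was possible because the groups share no animals and the labels give no common numbers. Of the members, 9 were called higher (33.4% of all genes) and 6 lower (20.9% of all genes). The number called higher was 5 with median-of-ratios scaling, where CD53, TSPAN9, TSPAN17 and TSPAN33 came under the fold threshold, 0 with Sertoli-centred scaling and 16 without a fold threshold. The number called lower was 19 with Sertoli-centred scaling. With the remaining alternatives, the omission of each library included, 8 to 13 were called higher (26.5% to 39.7% of all genes). Over all alternatives but Sertoli-centred scaling 4 to 8 were called lower (16.6% to 29.2% of all genes). The minimum of 5 FPKM left 17 members to test, of which 8 were called higher (36.2% of all genes) and 4 lower (22.7% of all genes). The median log2 fold change of the members, 0.69, was 0.911 with a pseudocount of 0.1, 0.544 with no minimum, 0.933 with voom, 0.244 with median-of-ratios scaling and −1.561 with Sertoli-centred scaling. The last of these shifts followed from its construction, since the Sertoli markers lie 2.23 above 0 in their median.

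Directions turned for 17 members with Sertoli-centred scaling, to −1.501 for TSPAN5, −0.246 for CD9, −0.647 for TSPAN13, −2.212 for TSPAN19, −0.971 for CD53, −2.225 for TSPAN3, −1.791 for TSPAN2, −1.231 for TSPAN33, −0.160 for the longer CD63 gene, −1.561 for TSPAN11, −1.702 for TSPAN15, −0.801 for TSPAN9, −0.975 for TSPAN17, −1.532 for TSPAN7, −1.248 for TSPAN18, −1.419 for TSPAN12 and −1.569 for TSPAN14. With median-of-ratios scaling TSPAN19 (−0.550) and TSPAN3 (−0.460) turned. With each library left out, TSPAN3 ranged from −0.106 to 0.125 and TSPAN19 from −0.242 to 0.227. TSPAN6, TSPAN8, TSPAN16, UPK1A and the shorter CD63 gene were called lower under each alternative in which they were tested. Depth limits TSPAN1, TSPAN10, UPK1B and PRPH2, and in cattle-yak TSPAN8, TSPAN16 and the shorter CD63 gene.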

Other observations

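Within cattle-yak, TES6 had the highest level of TSPAN11, TSPAN12, TSPAN15 and TSPAN18, 4 low tetraspanins of different role groups, which were put side by side after their values were seen. TES6 had 2.44 FPKM of TSPAN11, 4.08 of TSPAN12, 1.41 of TSPAN15 and 2.74 of TSPAN18. The other libraries of the group had 1.04 and 1.09, 2.25 and 2.52, 0.578 and 0.481, and 1.63 and 1.198. TES6 was the highest cattle-yak library for 10 of 27 tested members and for 37.8% of all tested genes. It also had the highest summed myoid and smooth muscle markers (755.0 FPKM against 560.1 in TES5 and 567.6 in TES7). The same held for the endothelial (64.4 against 58.0 and 45.1) and lymphocyte markers (24.96 against 12.84 and 18.68). Its summed spermatocyte markers were the lowest (184.8 against 305.1 and 287.7), though PIWIL1 of that list was lowest in TES7 (6.99 against 14.59 in TES6). The part of these cells in the 4 levels was not tested.

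Within yak, CD9 varied more than CD81 or CD63. Its order over the animals, highest in Yak9 and lowest in Yak8, was also that of the longer CD63 gene (48.5, 46.4 and 43.0 FPKM) and of TSPAN31 (94.4, 88.7 and 77.7). CD81 (29.7, 29.3 and 28.6), TSPAN3 (4.19, 3.62 and 2.79) and TSPAN7 (2.74, 2.39 and 1.92) had this order too. Their fragments numbered 606, 594 and 585 for CD81, 42, 36 and 28 for TSPAN3, and 37, 32 and 26 for TSPAN7. Counting error can change the order of such values. These members were put side by side after their order was seen, and a shared order was not tested. Yak9 had the lowest TSPAN6 (104.3 FPKM) and TSPAN19 (11.6) of the group. It was the lowest yak library for 8 of 27 tested members and for 40.8% of all tested genes.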
